A study of Mus musculus with 6 samples.

Results

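Genes whose symbols begin with Hnrnp, or consist of Srsf and a number, were taken from a mouse RNA-seq count table, which gave 29 of its 23420 genes: 11 genes for serine/arginine-rich splicing factors (SR proteins) and 18 for heterogeneous nuclear ribonucleoproteins (hnRNPs). The table held 6 libraries, 3 of them labelled Ctl MSC and the other 3 MSC-TPr, all from polyadenylated RNA of mesenchymal stromal cells (MSCs) grown out of the femur marrow of C57BL/6 females aged 6 to 8 weeks. The proteasome subunits β1i (Psmb9), β2i (Psmb10) and β5t (Psmb11) belong together to the thymoproteasome, and the immunoproteasome shares β1i and β2i but not β5t. MSC-TPr had been transduced with the AP2 retroviral construct coding for these 3 subunits, and Ctl MSC with the empty AP2 backbone. Both groups had thus been exposed to the retrovirus, whose backbone carries an eGFP marker, and the study's methods describe no selection of clones. The comparison asks how the levels of RNA-binding splicing regulators differed between the library labels. The labels do not say whether the 3 libraries of a group came from separate cultures, so p-values measure only the spread between these libraries, which may be technical.

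SR proteins bind exonic enhancers through RNA recognition motifs and recruit the splicing machinery through their arginine/serine-rich tails, and some of them also carry mRNA to the cytoplasm. hnRNPs coat nascent transcripts, and many of them oppose exon inclusion, stabilise or destabilise mRNAs, or shuttle them between nucleus and cytoplasm. Many members limit their own mRNA through an alternatively spliced exon that leads to nonsense-mediated decay.

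The SR genes Srsf1, Srsf2, Srsf3 and Srsf7 varied the most widely between libraries within their family, whereas Srsf5 varied little. Their promoters are shown so that the sequence in front of both kinds can be compared. Each runs from 250 bases before the transcription start to 50 bases after it, in the direction of transcription, from RefSeq on GRCm38.p6. Capitals mark exact matches on either strand to CCAAT (the CCAAT box), CCGGAA (the core bound by ETS factors), TTTCCCGC (an E2F site) or TATAAA (the TATA box). The regions are chr11:88047123-88047422 on the plus strand for Srsf1, chr11:116853045-116853344 on the minus strand for Srsf2, chr17:29032410-29032709 on the plus strand for Srsf3, chr17:80207256-80207555 on the minus strand for Srsf7 and chr12:80945249-80945548 on the plus strand for Srsf5.
Srsf1: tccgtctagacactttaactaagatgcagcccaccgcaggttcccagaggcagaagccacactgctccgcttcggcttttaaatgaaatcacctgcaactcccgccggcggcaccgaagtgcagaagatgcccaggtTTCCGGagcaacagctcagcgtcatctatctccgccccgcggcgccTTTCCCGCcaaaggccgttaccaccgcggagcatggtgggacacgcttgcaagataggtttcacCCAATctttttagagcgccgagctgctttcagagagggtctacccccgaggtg
Srsf2: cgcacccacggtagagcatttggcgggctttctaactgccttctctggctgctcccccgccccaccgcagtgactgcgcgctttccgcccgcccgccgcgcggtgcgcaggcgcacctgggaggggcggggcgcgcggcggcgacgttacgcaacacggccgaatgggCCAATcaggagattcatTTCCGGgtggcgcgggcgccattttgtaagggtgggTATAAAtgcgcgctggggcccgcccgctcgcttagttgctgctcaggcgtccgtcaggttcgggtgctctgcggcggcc
Srsf3: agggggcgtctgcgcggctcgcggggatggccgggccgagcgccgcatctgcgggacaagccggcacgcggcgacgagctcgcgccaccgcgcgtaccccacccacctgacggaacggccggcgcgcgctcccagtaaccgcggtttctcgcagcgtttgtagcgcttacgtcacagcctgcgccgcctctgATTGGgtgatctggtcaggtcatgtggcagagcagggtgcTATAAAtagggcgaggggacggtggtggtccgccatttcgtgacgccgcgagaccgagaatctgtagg
Srsf7: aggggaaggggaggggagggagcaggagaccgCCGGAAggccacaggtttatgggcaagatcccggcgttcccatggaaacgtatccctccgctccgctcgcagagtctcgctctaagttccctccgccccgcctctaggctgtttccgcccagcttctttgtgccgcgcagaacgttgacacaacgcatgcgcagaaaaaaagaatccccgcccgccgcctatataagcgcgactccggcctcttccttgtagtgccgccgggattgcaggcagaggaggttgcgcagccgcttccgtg
Srsf5: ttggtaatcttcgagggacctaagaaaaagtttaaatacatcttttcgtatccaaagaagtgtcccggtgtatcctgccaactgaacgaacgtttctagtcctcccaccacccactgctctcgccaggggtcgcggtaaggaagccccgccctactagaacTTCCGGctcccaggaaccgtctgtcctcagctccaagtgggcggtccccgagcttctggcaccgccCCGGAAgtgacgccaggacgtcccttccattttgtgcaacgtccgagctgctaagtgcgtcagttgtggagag

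Among these promoters, that of Srsf1 held a CCAAT box, an ETS core and an E2F site, and that of Srsf2 a CCAAT box, an ETS core and a TATA box. The Srsf3 promoter held a CCAAT box and a TATA box, the Srsf7 promoter 1 ETS core, and the Srsf5 promoter an ETS core on each strand. Of the 29 genes, 28 had a promoter in the table, with Hnrnpul2 the exception, and these 28 had 40 promoters. CCAAT occurred in 21 of the 40 (52.5%), against 37.4% of all 32851 promoters of the table and 38.2% of the 11481 promoters of genes tested here. CCGGAA occurred in 42.5%, against 14.9% and 27.5%. TTTCCCGC occurred in 4 promoters (10.0%, those of Srsf1, Srsf10, Hnrnpr and Hnrnpul1), against 1.07% and 1.98%. TTTGAA, the cell cycle homology region of many genes of mitosis, occurred in 12.5%, against 17.9% and 11.7%, and TATAAA in 10.0%, against 13.6% and 7.1%. AAGATGGCG, a YY1 site, occurred in 0 of the 40, against 1.4% and 3.04%. The member promoters were rich in G and C, with a median of 67.8%, against 61% for promoters of tested genes and 52.7% for all, and CCGGAA and TTTCCCGC are themselves rich in these bases. These matches are letters in a window and not measured sites. Motifs did not overlap each other in the 5 promoters printed.

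Before the members, the libraries were checked against their labels. Levels are CPM (gene reads scaled to the TMM-normalised library total) and are given in the order of libraries 1, 2 and 3. Psmb10 stood at 27.8, 8.81 and 8.38 CPM among Ctl MSC but at 8.97, 17.3 and 15.2 CPM among MSC-TPr. Psmb9 stood at 3.38, 0.801 and 0.827 CPM against 0.554, 1.24 and 1.21 CPM, and Psmb11 lay at or below 0.355 CPM in every library. No transduced gene was higher in all MSC-TPr libraries than in all Ctl MSC libraries, so every direction below is one between libraries so labelled. The AP2 construct codes for all 3 subunits, yet Psmb11 stayed at or below 0.355 CPM in the MSC-TPr libraries too. Whether any Psmb10 or Psmb9 reads came from the construct was not tested, so their levels cannot show which libraries had been transduced. The summed level of 30 cell division genes split the libraries not by label but into the same sets as Psmb10 and Psmb9. It was 3483 CPM in Ctl MSC 1, 3273 in MSC-TPr 2 and 3236 in MSC-TPr 3, but 682 in Ctl MSC 2, 694 in Ctl MSC 3 and 663 in MSC-TPr 1. The 2 libraries numbered 1 therefore went against the rest of their groups, and results are given with and without them. The labels cannot settle whether these 2 libraries carry each other's label, which would turn their part in every fold change over 6 libraries. Groups were taken from the labels alone, so no values with the labels exchanged were computed. Of 9 MSC markers, 8 had reads in every library, while Thy1 (CD90) had 1 read in Ctl MSC 1 and none elsewhere. Summed, the MSC markers split the libraries into the same sets as the cell division genes. The higher set was Ctl MSC 1 at 8078 CPM, MSC-TPr 2 at 7015 and MSC-TPr 3 at 13931. The lower set was Ctl MSC 2 at 3109 CPM, Ctl MSC 3 at 3103 and MSC-TPr 1 at 2116. Haematopoietic markers (6 of the 8 listed are in the table) summed to 11.2 to 14.5 CPM in Ctl MSC and 12.9 to 17.5 CPM in MSC-TPr, with Ptprc (CD45) at 0 in 5 libraries and 2 reads in MSC-TPr 3. Endothelial markers summed to 0.785 to 3.09 CPM and 1.67 to 3.32 CPM, with Pecam1 (CD31) at 0 to 4 reads. The part of these markers in the results was not tested. The libraries held 16158756 to 22158887 gene reads, and 3 reads, taken as the smallest detectable amount, equal 0.139 to 0.181 CPM (counting error only).

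SR protein and hnRNP transcripts were abundant in every library. Together they took 0.962%, 0.660% and 0.639% of the gene reads of Ctl MSC, and for MSC-TPr the shares were 0.674%, 0.975% and 0.840%. The shares of Ctl MSC 1, MSC-TPr 2 and MSC-TPr 3 lay above those of the other 3 libraries. Per kilobase of annotated exon, the highest members were Hnrnpab at a mean of 295 CPM per kb over the 6 libraries (range 215 to 406) and Hnrnpf at 237 CPM per kb (192 to 304), whose ranges overlapped. Hnrnpa2b1 followed at 145 CPM per kb (101 to 194), then Hnrnpk at 90.2 (75.9 to 111) and Hnrnpu at 67.8 (55.1 to 85.3), each overlapping its neighbour in range. The highest SR genes were Srsf2 at 64.6 CPM per kb (26.7 to 101) and Srsf1 at 63.3 (29.5 to 109). At the low end, Hnrnpul1 had 13.5 CPM per kb, Hnrnpr 6.12, Hnrnpa1 3.60 and Hnrnph3 2.14. Srsf12 had 0 reads in every library, which allows up to 3 reads each. It was the 1 member that did not pass the filter on low counts, so that 28 were tested.

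**Figure D1:**
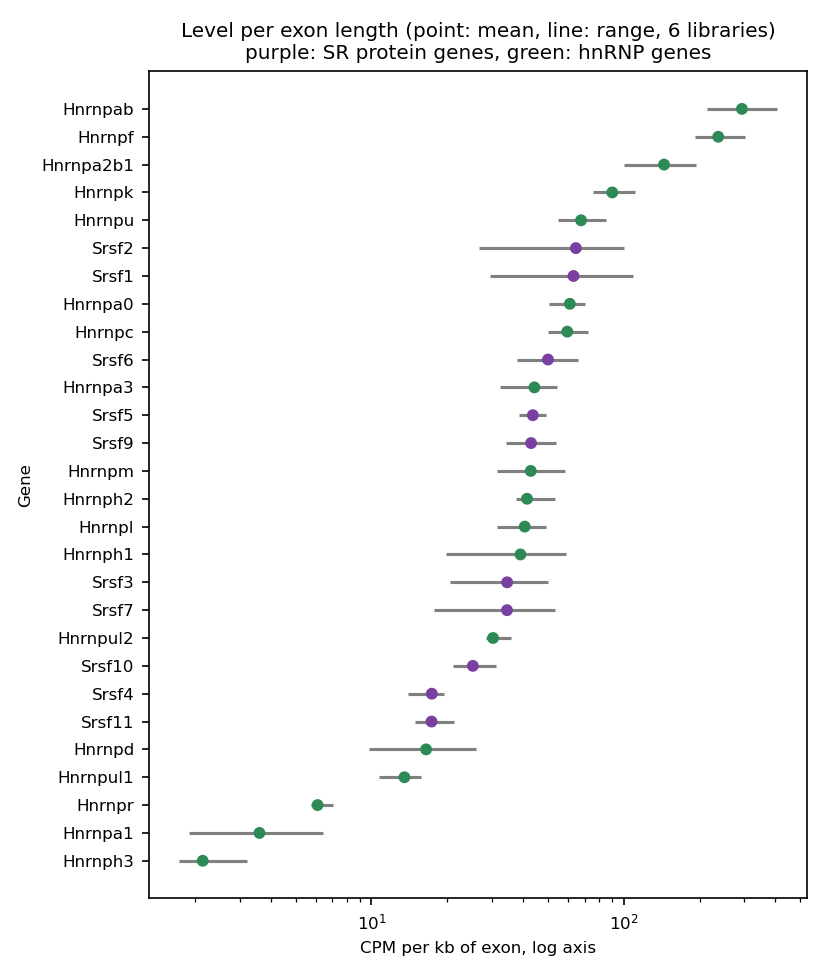
Level of each expressed member in CPM per kilobase of exon, on a log axis, as the mean (point) and range (line) over 6 libraries, with SR genes in purple and hnRNP genes in green. Hnrnpab, Hnrnpf and Hnrnpa2b1 lead with means of 295, 237 and 145 CPM per kb, and the lines of Srsf1, Srsf2, Srsf7 and Hnrnph1 are wide.

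The counts of some members are uncertain because other annotated transcripts match theirs at 97% identity or more over at least 300 bases. Hnrnpa3 had 16 such matches (14 to pseudogenes), Hnrnpf 8, Hnrnpa1 5 (all pseudogenes), Srsf3 3, Hnrnpk and Srsf10 2 each, and Hnrnpc, Hnrnph2 and Srsf5 1 each. Reads that aligned to several places made up 5.892% to 8.916% of the reads listed per library and were kept apart from the gene counts by the authors' counting. Hnrnpa1 is abundant in most cells, and the part of its 5 matches in the low level found here was not tested. The sources used here do not state whether counting used the strand. Exons of Srsf2 share bases with Mettl23 and Mfsd11 on the opposite strand, those of Hnrnpab with Phykpl, those of Hnrnpu with Cox20, those of Hnrnpk with Rmi1 and those of Hnrnph3 with Rufy2. Exons of Srsf4 share 1532 bases with the noncoding gene Gm12992 on the opposite strand, and those of Hnrnpr 715 bases with Gm27022. Shorter overlaps with antisense or unclassified genes are annotated for Srsf1, Hnrnpd, Hnrnpf and Hnrnpl. On the same strand, exons of Hnrnpm share 1169 bases with March2, those of Hnrnpul2 360 with AC129217.1 and those of Hnrnpa3 57 with Gm24574.

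Over all 6 libraries, none of the 28 members passed the threshold (edgeR quasi-likelihood test, adjusted p under 0.05 over all genes, with a difference of 0.5 or more on the log2 scale), where 0.0251% of all 11974 genes tested were called higher in MSC-TPr and 0.401% lower. None of them had an unadjusted p under 0.05 in edgeR, where 6.81% of genes did so as higher and 8.23% as lower. DESeq2 gave none of them an unadjusted p under 0.05 and called none, beside 1.9% of genes called higher and 3.42% lower. The log2 fold change (MSC-TPr over Ctl MSC) was positive for 21 of the 28, with a median of 0.14 against 0.01 for all genes tested, and ranged from −0.39 for Hnrnpa1 to 0.44 for Srsf1. The smallest adjusted p, 0.417, was that of Hnrnpu. In bulk RNA, fewer cells of a type and less RNA per cell cannot be told apart, so a level here is that of the culture.

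Without the libraries numbered 1, many members were called. Those libraries were set aside because their values went against the rest of their groups, in a split that most members share. The p-values over the remaining libraries are conditional on that choice and leave out the spread that the libraries numbered 1 add within each label. Ctl MSC 2 and 3 were also closer to each other than any other pair of libraries. The chi-square between their counts was 4.761 per gene, against 50.01 for MSC-TPr 2 and 3. These p-values therefore rest in part on a small spread among controls, which may be technical. Over Ctl MSC 2 and 3 and MSC-TPr 2 and 3, 12 of the 28 members were called higher in MSC-TPr, where 20.6% of the 12122 genes tested were called higher, and 0 were called lower, where 19.4% of genes were. The 12 were Srsf1, Srsf2, Srsf3, Srsf6, Srsf7, Srsf9, Hnrnpa2b1, Hnrnpab, Hnrnpd, Hnrnpf, Hnrnph1 and Hnrnpm. Srsf10, Hnrnpa3 and Hnrnpl had an adjusted p under 0.05 with a smaller fold. The median log2 fold change of the members in these 4 libraries was 0.45, against 0.00 for all genes, and 24 of the 28 were positive. DESeq2 on the same 4 libraries also called 12 members higher and 0 lower, beside 18.3% and 16.3% of genes. Between the libraries numbered 1 the order was the opposite one: MSC-TPr 1 lay below Ctl MSC 1 in 26 of 28 members, where it did so in 50.1% of all genes. The median difference there was −0.50 on the log2 scale, and this pair has no replicate and no test. Hnrnph2 and Hnrnpu were the exceptions, where 49.9% of all genes were higher in MSC-TPr 1. The summed cell division level differed in the same directions, 3483 CPM in Ctl MSC 1 against 663 in MSC-TPr 1 and 682 and 694 in Ctl MSC 2 and 3 against 3273 and 3236 in MSC-TPr 2 and 3. With the mean log2 level of the cell division genes as a covariate over all 6 libraries, the median log2 fold change of the members was −0.05 and 1 of them, Hnrnpa1, was called, as lower, where 7.3% of genes were called lower and 4.72% higher.

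**Figure D2:**
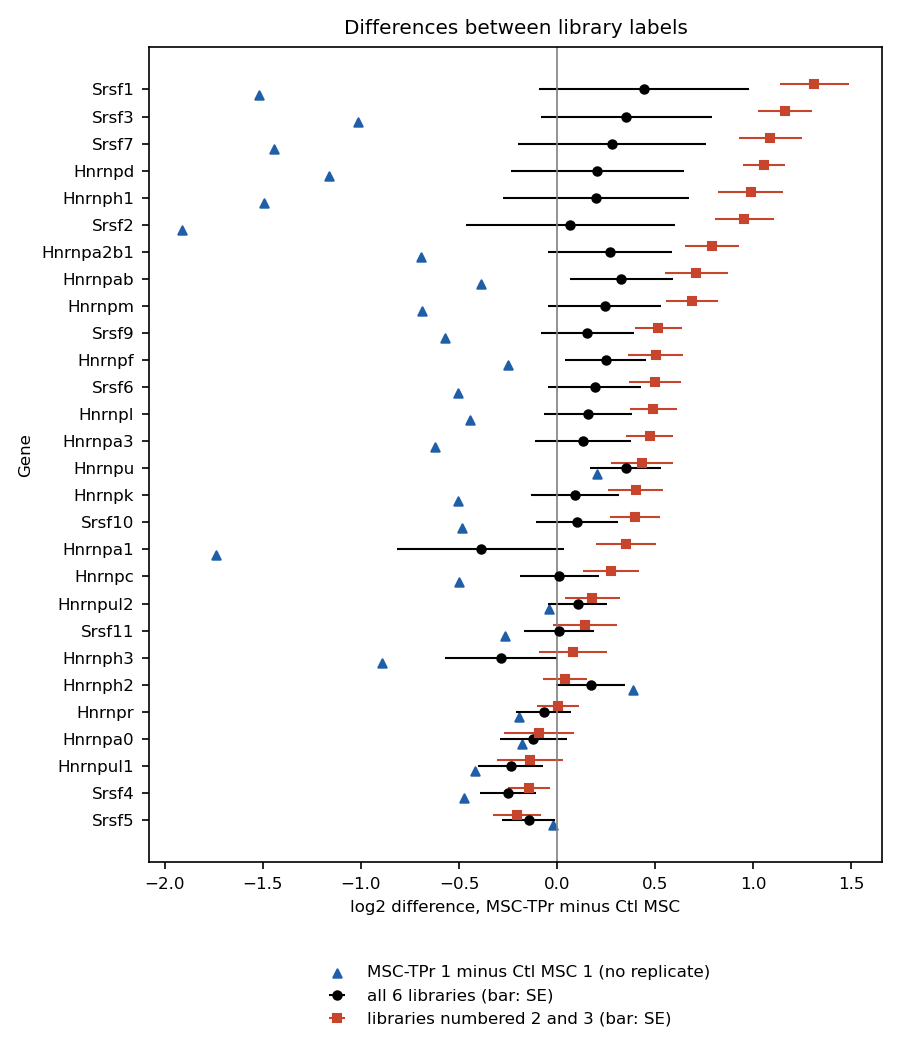
Log2 difference between MSC-TPr and Ctl MSC for the 28 members tested: all 6 libraries (black circles, bars are SE), libraries numbered 2 and 3 (red squares, bars are SE), and MSC-TPr 1 minus Ctl MSC 1 (blue triangles, no replicate). For Srsf1 the values are 0.44, 1.31 and −1.52, so the circle lies between marks on opposite sides of 0, as for each of the 12 genes called higher without the libraries numbered 1.

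Relative to each gene's own mean over the 6 libraries, Ctl MSC 1 stood at a median of 0.26 over the 28 members on the log2 scale, Ctl MSC 2 at −0.23 and Ctl MSC 3 at −0.23. MSC-TPr 1 stood at −0.26, MSC-TPr 2 at 0.32 and MSC-TPr 3 at 0.14. MSC-TPr 2 was the highest library for 16 members and Ctl MSC 1 for 8, and MSC-TPr 1 was the lowest for 14. Ctl MSC 1 was nearer to the mean of MSC-TPr 2 and 3 than to that of Ctl MSC 2 and 3 for 26 members (92.9%), where it was for 61% of all genes tested. MSC-TPr 1 was nearer to Ctl MSC 2 and 3 for 21 members (75%), against 59.8% of all genes, and both held for 21 members, against 44.3% of all genes. The spread between libraries was smaller over the members than over all genes: the highest library exceeded the lowest by a median of 1.57-fold over the members and 1.93-fold over all genes tested, and by more than 2-fold for 7 members (25%) against 46.6% of all genes. The 7 were Srsf1, Srsf2, Srsf3, Srsf7, Hnrnpa1, Hnrnpd and Hnrnph1. This comparison was not matched on level, and counting noise widens such a ratio in genes with few reads.

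**Figure D3:**
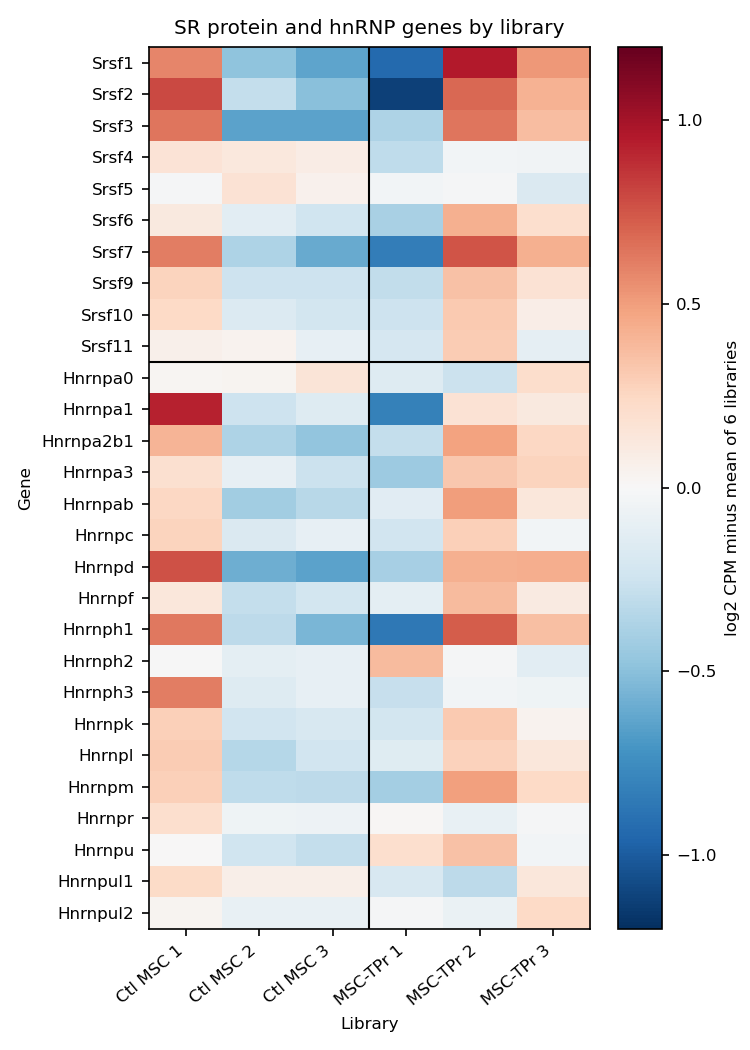
Log2 CPM of each member minus its mean over 6 libraries, with SR genes above the horizontal line, hnRNP genes below it and Ctl MSC left of the vertical line (red above the mean, blue below). The columns of Ctl MSC 1, MSC-TPr 2 and MSC-TPr 3 are mostly red, with medians of 0.26, 0.32 and 0.14, and the other 3 mostly blue, while Hnrnph2, Hnrnpr, Hnrnpul2, Srsf4 and Srsf5 stay pale in most columns.

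Among the SR genes, Srsf1 (chromosome 11, 88047373 to 88053755 of mm10), which binds purine-rich enhancers and is a proto-oncogene, had Ctl MSC levels of 482, 229 and 207 CPM and MSC-TPr levels of 168, 621 and 460 CPM. The groups overlapped, since Ctl MSC 1 lay above MSC-TPr 3 and MSC-TPr 1 below every Ctl MSC library. The means were 306 ± 153 and 416 ± 230 CPM (SD, n = 3 each), and the log2 fold change was 0.44 (SE 0.534, adjusted p = 0.749). Over the libraries numbered 2 and 3, Srsf1 rose from 218 ± 15.8 to 541 ± 114 CPM (SD, n = 2 each), with a log2 fold change of 1.31 (SE 0.175, adjusted p = 0.0025 by edgeR), the largest of the family. Over the other settings that keep at least 1 library numbered 1, its adjusted p ranged from 0.315 to 0.988. Srsf9, the SR protein closest to Srsf1 in sequence, had a narrower spread of 84.2, 58.5 and 58.9 CPM against 56.7, 89.0 and 78.8 CPM, with a log2 fold change of 0.15 (adjusted p = 0.807) and, without the libraries numbered 1, of 0.52 (SE 0.118, adjusted p = 0.016).

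Srsf2 (SC35, a component of nuclear speckles, chromosome 11, 116849901 to 116853094) had Ctl MSC levels of 298, 141 and 121 CPM and MSC-TPr levels of 79.1, 278 and 230 CPM. Ctl MSC 1 held its highest and MSC-TPr 1 its lowest level. The log2 fold change was 0.07 (SE 0.533, adjusted p = 0.966), became 0.95 (SE 0.149, adjusted p = 0.0042) over the libraries numbered 2 and 3, and was −1.91 between the libraries numbered 1. The 3.76-fold distance between its highest and lowest library was the widest of any member.

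Srsf3 and Srsf7 are close relatives, and both act as adaptors for mRNA export. Srsf3 (chromosome 17, 29032628 to 29043373) had Ctl MSC levels of 395, 162 and 162 CPM and MSC-TPr levels of 195, 396 and 327 CPM, and Srsf7 (chromosome 17, 80200080 to 80207307) had 171, 86.8 and 73.4 CPM and 63.0, 189 and 151 CPM. In both genes Ctl MSC 1 lay between MSC-TPr 3 and MSC-TPr 2, and MSC-TPr 1 lay nearer to Ctl MSC 2 and 3 than to the rest of its group. Their log2 fold changes were 0.35 (SE 0.435, adjusted p = 0.755) and 0.28 (SE 0.480, adjusted p = 0.827). Over the libraries numbered 2 and 3, both rose, by 1.16 (SE 0.136, adjusted p = 0.0017) and 1.09 (SE 0.159, adjusted p = 0.0034) on the log2 scale.

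Srsf4, Srsf5 and Srsf6 are close relatives that each carry a pair of RNA-binding domains, and their levels followed different orders. Srsf6 had Ctl MSC levels of 258, 217 and 201 CPM and MSC-TPr levels of 181, 319 and 271 CPM, and was called higher without the libraries numbered 1 (log2 fold change 0.50, adjusted p = 0.025). Srsf4 (chromosome 4, 131873617 to 131901706) had 68.8, 67.1 and 65.5 CPM against 49.6, 60.2 and 59.5 CPM, and Srsf5 (chromosome 12, 80945504 to 80950507) had 172, 196 and 180 CPM against 170, 172 and 154 CPM. For these 2 members, of which Srsf4 overlaps Gm12992 and Srsf5 has a near-identical copy, every MSC-TPr library lay below every Ctl MSC library under TMM, RLE or library size scaling, where groups lay apart in this direction for 12.1% of all genes. No member had its groups apart in the other direction, where 10.6% of genes did. Their log2 fold changes of −0.25 (SE 0.143, adjusted p = 0.466) and −0.15 (SE 0.135, adjusted p = 0.662) did not pass the test, nor did those of −0.14 (adjusted p = 0.309) and −0.20 (adjusted p = 0.212) without the libraries numbered 1.

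Srsf10, which represses splicing in its dephosphorylated form, had Ctl MSC levels of 206, 156 and 150 CPM and MSC-TPr levels of 147, 218 and 185 CPM, with a log2 fold change of 0.10 (adjusted p = 0.859) over 6 libraries and 0.40 (adjusted p = 0.0475) without the libraries numbered 1. Srsf11 had 152, 150 and 136 CPM against 126, 179 and 135 CPM, with log2 fold changes of 0.01 and 0.14 (adjusted p = 0.986 and 0.510). Summed over the family, SR transcripts reached 2287, 1463 and 1355 CPM over the Ctl MSC libraries and, over those of MSC-TPr, 1236, 2520 and 2052 CPM.

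**Figure D4:**
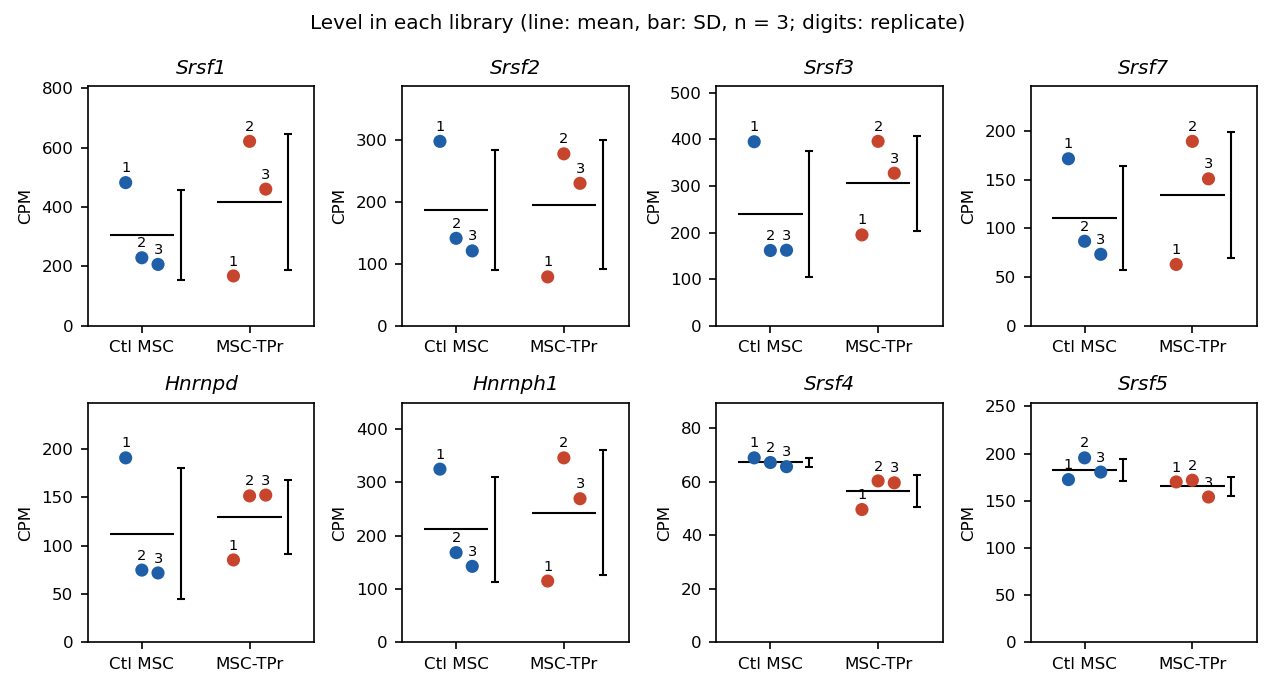
CPM of 8 members in each library (digits are replicate numbers; line and bar are mean and SD, n = 3). In Srsf1, Srsf2, Srsf3, Srsf7, Hnrnpd and Hnrnph1 the Ctl MSC library numbered 1 sits far above the other 2 and the MSC-TPr library numbered 1 far below, whereas in Srsf4 and Srsf5 all Ctl MSC points lie above all MSC-TPr points.

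Among the hnRNPs of the A/B type, which bind UAGG-like and AU-rich elements, Hnrnpa2b1 had Ctl MSC levels of 1218, 711 and 663 CPM and MSC-TPr levels of 754, 1280 and 1089 CPM. Hnrnpab, a relative of Hnrnpd and Hnrnpdl despite its symbol, had 951, 597 and 633 CPM against 728, 1130 and 877 CPM. Neither passed the test over 6 libraries (log2 fold changes 0.27 and 0.33, adjusted p = 0.738 and 0.609). Both rose over the libraries numbered 2 and 3, by 0.79 (SE 0.139, adjusted p = 0.0064) and 0.71 (SE 0.159, adjusted p = 0.015) on the log2 scale. Among the relatives of Hnrnpa2b1, Hnrnpa3 had 268, 220 and 196 CPM against 174, 293 and 283 CPM. Its log2 fold changes were 0.13 (adjusted p = 0.840) over 6 libraries and 0.47 (adjusted p = 0.0218) over 4. Hnrnpa0, a gene without introns, had 165, 166 and 181 CPM against 146, 136 and 189 CPM, with −0.12 (adjusted p = 0.789) and −0.09 (adjusted p = 0.688). Hnrnpa1 had 20.2, 8.92 and 9.49 CPM against 5.98, 11.9 and 11.5 CPM. Its log2 fold change was −0.39 (SE 0.425, adjusted p = 0.717), 0.35 (adjusted p = 0.107) without the libraries numbered 1, and −0.67 (adjusted p = 0.032) with the cell division covariate, so its sign depended on the libraries used, and its adjusted p ranged from 0.032 to 0.926 over the settings that keep a library numbered 1.

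Hnrnpd (AUF1, chromosome 5, 99955935 to 99978938), which binds AU-rich elements and marks mRNAs for decay, had Ctl MSC levels of 191, 74.8 and 71.8 CPM and MSC-TPr levels of 85.3, 151 and 152 CPM. Ctl MSC 1 was higher than any MSC-TPr library. The log2 fold change of 0.21 (SE 0.443, adjusted p = 0.863) became 1.05 (SE 0.109, adjusted p = 0.0011) without the libraries numbered 1, the largest log2 fold change and the smallest adjusted p among the hnRNP genes in that fit. Its relative Hnrnpdl, which the table lists under the older symbol Hnrpdl and which is not among the 29, had 197, 83.0 and 77.4 CPM against 65.6, 153.9 and 142 CPM, and log2 fold changes of 0.02 (adjusted p = 0.991) and 0.89 (adjusted p = 0.0020).

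The H/F group binds runs of G. Hnrnph1 (chromosome 11, 50376990 to 50386528) had Ctl MSC levels of 325, 168 and 143 CPM and MSC-TPr levels of 115, 346 and 269 CPM, with log2 fold changes of 0.20 (SE 0.475, adjusted p = 0.879) over 6 libraries and 0.99 (SE 0.166, adjusted p = 0.0054) over 4. Hnrnpf had 785, 586 and 612 CPM against 659, 926 and 769 CPM, with 0.25 (adjusted p = 0.621) and 0.50 (adjusted p = 0.030). Hnrnph2, the X-linked relative, departed from this order with 178, 165 and 167 CPM against 233, 177 and 164 CPM. It was highest in MSC-TPr 1, the only member with its highest level there, and its log2 fold changes of 0.17 and 0.04 did not pass the test (adjusted p = 0.699 and 0.777). Hnrnph3 had 10.2, 5.93 and 6.18 CPM against 5.43, 6.45 and 6.35 CPM, a 1.87-fold distance between its highest and lowest library.

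Hnrnpm, a splicing regulator of the epithelial to mesenchymal transition, had Ctl MSC levels of 403.5, 267 and 266 CPM and MSC-TPr levels of 249.9, 467 and 391 CPM, and rose over the libraries numbered 2 and 3 by 0.69 on the log2 scale (SE 0.134, adjusted p = 0.0089). Hnrnpl, which binds CA repeats, had 294, 188 and 203 CPM against 216, 287 and 261 CPM, and a log2 fold change of 0.49 in the same fit (adjusted p = 0.0198), just under the threshold on size. Its relative Hnrnpll, listed as Hnrpll and outside the 29, had 103, 78.1 and 80.0 CPM against 96.4, 131 and 119 CPM, with 0.41 (adjusted p = 0.372) over 6 libraries and 0.66 over 4 (adjusted p = 0.0060). Hnrnpk, which binds C-rich sequence, had 699.7, 491 and 504 CPM against 493, 716 and 594 CPM, and Hnrnpc, which binds tracts of U, 307, 226 and 238 CPM against 218, 311 and 249.8 CPM. Neither passed the test in either fit (adjusted p = 0.885 and 0.985 over 6 libraries, 0.0579 and 0.164 over 4).

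Hnrnpu (SAF-A), a scaffold protein of chromatin, had Ctl MSC levels of 778, 659 and 639 CPM and MSC-TPr levels of 894, 989 and 760.0 CPM. With Hnrnph2, it was 1 of the 2 members higher in MSC-TPr both in the pair numbered 1 (a log2 difference of 0.20) and over the other libraries (0.43, adjusted p = 0.069). Over all 6 the value was 0.35 (SE 0.179), with an unadjusted p of 0.0945 and an adjusted p of 0.417 by edgeR, and Ctl MSC 1 lay above MSC-TPr 3. Its relatives Hnrnpul1 and Hnrnpul2, both linked to the DNA damage response, had 136, 122 and 122 CPM against 102, 93.0 and 128 CPM and 219, 202 and 202 CPM against 213, 204 and 253 CPM. Hnrnpr varied least, with 156, 131 and 130 CPM against 136, 127 and 134 CPM, a 1.22-fold distance between its highest and lowest library. Summed over the family, hnRNP transcripts reached 7105, 4989 and 4986 CPM over the Ctl MSC libraries and, over those of MSC-TPr, 5428, 7653 and 6581 CPM.

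Lists of genes that act with these factors were set beside them. Of 105 tested genes on 5 lists, 0 were called over 6 libraries by edgeR, 12 were higher and 3 lower at an unadjusted p under 0.05, where 6.81% and 8.23% of all genes were. DESeq2 called 1 higher (Rnps1) and 1 lower (Nova1), where it called 1.9% and 3.42% of all genes. The groups did not overlap for 15 of the 105 as higher and 10 as lower, where this held for 10.6% and 12.1% of all genes. The genes named below as having groups apart have this same background. Without the libraries numbered 1, edgeR called 30 higher and 2 lower, where 20.6% and 19.4% of all genes were called, and the counts over 4 libraries given next for each list have this same background. Kinases, phosphatases, methyltransferases and importers of SR proteins had a median of 0.14 on the log2 scale over 6 libraries (16 tested) and 4 called higher over 4 libraries, a share near the 20.6% of all genes. Srpk1, the kinase that sends SR proteins to the nucleus, had Ctl MSC levels of 82.4, 85.1 and 84.6 CPM and MSC-TPr levels of 110, 128 and 104 CPM, so that its groups did not overlap (log2 fold change 0.44, adjusted p = 0.231). Prmt5, an arginine methyltransferase, had 0.57 (adjusted p = 0.284), Prpf4b −0.38 (adjusted p = 0.334) and Clk1 −0.19 (adjusted p = 0.710).

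SR-related proteins, which carry arginine/serine-rich tails but are not SR proteins proper, had a median of 0.09 (23 tested) and 5 called higher over 4 libraries, again near the 20.6% of all genes. Their summed level of 4074, 4158 and 3755 CPM over Ctl MSC, with 4064, 4520 and 4112 CPM over MSC-TPr, did not separate the libraries the way the SR genes did. Rnps1, a part of the exon junction complex, had 137, 145 and 149 CPM against 232, 225 and 187 CPM. Its groups did not overlap, the libraries numbered 1 included, and its log2 fold change of 0.58 had an adjusted p of 0.176 in edgeR and 0.0275 in DESeq2. Rbm39 had 0.42 (adjusted p = 0.465), Rsrc1 −0.21 (adjusted p = 0.516) and Srrm1 −0.32 (adjusted p = 0.314).

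Relatives of the hnRNPs with other symbols had a median of 0.12 (13 tested) and 4 called higher over 4 libraries, beside 20.6% of all genes. Ptbp2, a repressor of neuronal exons, had a log2 fold change of 0.50 (adjusted p = 0.251), Cirbp −0.41 (adjusted p = 0.521) and Rbmx −0.88 (adjusted p = 0.523). Other splicing regulators had a median of 0.04 (22 tested), with 3 called higher and 2 lower over 4 libraries, shares below the 20.6% and 19.4% of all genes. Nova1, best known from neurons, had 16.9, 10.8 and 10.8 CPM against 2.38, 4.50 and 4.92 CPM, a log2 fold change of −1.70 (SE 0.358, adjusted p = 0.121 in edgeR and 8.9e-04 in DESeq2), with groups that did not overlap. Celf1 had 0.43 (adjusted p = 0.258), Qk 0.40 (adjusted p = 0.294) and Tia1 −0.38 (adjusted p = 0.282).

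Core spliceosome genes had a median of 0.26 (31 tested, 28 positive, beside 6124 positive of 11974 genes in all), with 14 called higher over 4 libraries and 0 lower, beside 20.6% and 19.4% of all genes. Their summed level was 4721, 3793 and 3815 CPM over the Ctl MSC libraries and, over those of MSC-TPr, 4639, 5473 and 4770 CPM. Here MSC-TPr 1 lay above Ctl MSC 2 and 3, as it did in the hnRNP sum (5428 CPM against 4989 and 4986), whereas it held the lowest SR sum. Ctl MSC 1, MSC-TPr 2 and MSC-TPr 3 still lay above the rest, the lowest of them at 4721 CPM against 4639. The same order held for the kinase list (2391 against 2218 CPM) and the hnRNP relatives (2979 against 2505 CPM). It also held for the other splicing regulators (4077 against 3793 CPM), and only the SR-related list lacked it. Snrpb, a core Sm protein, had 186, 158 and 175 CPM against 272, 304 and 218 CPM, with groups that did not overlap and a log2 fold change of 0.61 (adjusted p = 0.201). Snrpa1 had 0.64 (adjusted p = 0.347), Sf3a3 −0.21 (adjusted p = 0.685) and Prpf4 −0.29 (adjusted p = 0.480).

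**Figure D5:**
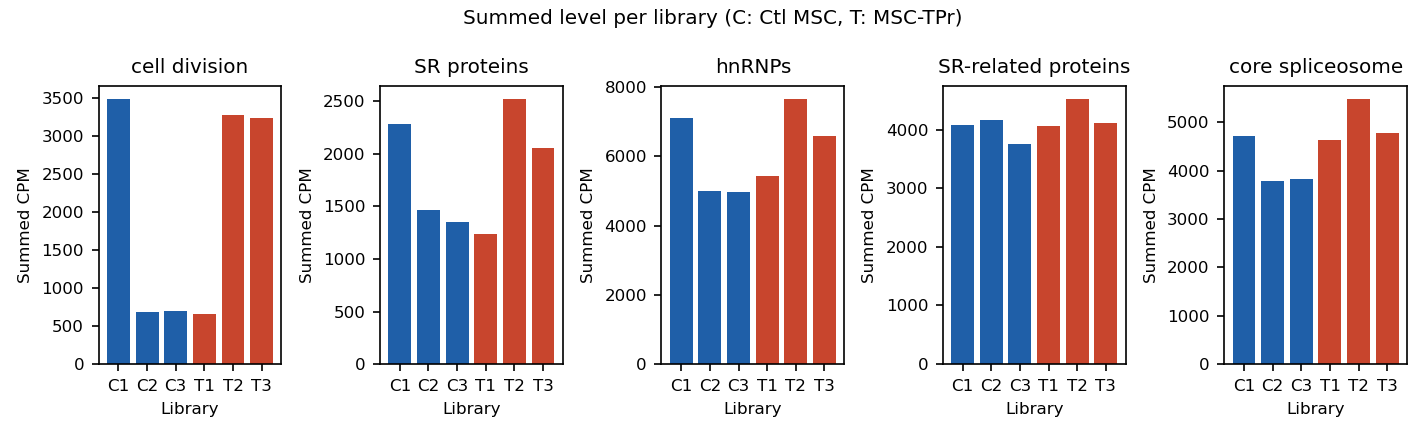
Summed CPM per library of cell division genes, SR genes, hnRNP genes, SR-related genes and core spliceosome genes (C1 to C3 are Ctl MSC, T1 to T3 are MSC-TPr; each panel has its own axis from 0). Cell division falls into levels near 3236 to 3483 and 663 to 694 CPM. The same 3 libraries lie above the other 3 in the SR and hnRNP panels and, more narrowly, in the core spliceosome panel. The SR-related sums stay between 3755 and 4520 CPM.

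The annotation shows what the members share beyond their symbols. A transcript marked for nonsense-mediated decay is annotated for 17 of the 29 (58.6%; 9 of the 11 SR genes and 8 of the 18 hnRNP genes), against 29.4% of the 10998 protein-coding genes tested. A transcript with a retained intron is annotated for 20 (69.0%), against 60.4%. The members have a median of 8 annotated transcripts, against 5, and a gene with more transcripts has more occasions to hold one of either type. Counts per gene add up all transcripts, productive or not, and splicing itself was not analysed here.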

How the data were processed

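Polyadenylated RNA of 3 Ctl MSC and 3 MSC-TPr libraries was made into stranded, paired-end libraries. The authors mapped the reads to mm10 and used Htseq-count for gene counts, which they deposited raw. The submitters' processing notes name CASAVA 1.8.2, Trimmomatic 0.35 and TopHat2 2.1.0. The tally lines that name no gene (no feature 6.863% to 10.92%, ambiguous 0.9394% to 1.087%, not unique 5.892% to 8.916% of listed reads) were left out of library sizes. Groups came from the sample labels.

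Counts were tested in R 4.3.3 with edgeR 4.0.16 (TMM, filterByExpr, quasi-likelihood test, group as the only term, Benjamini-Hochberg adjustment over all genes tested). Calls needed an adjusted p under 0.05 and a log2 difference of 0.5 or more. The SE was taken as the log2 fold change over √F, without its sign. DESeq2 1.42.0 was an alternative, as were other scalings, filters, a cell division covariate, a replicate block, the libraries numbered 2 and 3 alone, and each library left out. DESeq2 on those 4 libraries was added after seeing the data. On simulated data (4-fold changes planted in 200 genes) edgeR found 200 over 6 libraries at a dispersion of 0.01 (12020 genes) and 193 at 0.1 (12043 genes). It made 3 and 7 false calls. The planted changes exceeded the fold change of any member, and no simulated library went against its label. The power to detect differences of the size seen in the members was therefore not measured.

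Members and lists were chosen with earlier results of these data known. Values per library were given for members called in either fit, members whose groups did not overlap, the highest and lowest per length, and close relatives. Of each list, the 2 genes with the largest rise and the 2 with the largest fall were named, and Hnrpdl and Hnrpll are older symbols of 2 of the relatives. A gene that this rule names is not reported here. Coordinates and exon lengths came from GENCODE M21 and copies were sought with BLAST 2.17.0+. Promoters came from RefSeq. Protein sequences were not used here, so the planned comparison of protein features was not made.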

Additional observations from a re-analysis of the deposited data

How the results depend on the processing

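None of the 28 members tested was called in either direction under RLE scaling, no filter on low counts, at least 10 counts in every library, no fold threshold, DESeq2, the replicate block or any library left out. Their median log2 fold change of 0.14 ranged from −0.01 to 0.29 with 1 library left out. It was −0.05 with the cell division covariate, 0.45 over the libraries numbered 2 and 3 alone and 0.46 there in DESeq2. Those 4 libraries called 12 members higher in both tools, and the covariate called 1 lower (Hnrnpa1). Over all genes, 3 were called higher and 48 lower. These counts were 244 and 439 in DESeq2, 2498 and 2356 over the libraries numbered 2 and 3, 2411 and 2153 there in DESeq2, and 565 and 874 with the covariate. At least 10 counts in every library left 29 lower. With 1 library left out, higher calls ranged from 0 to 11 and lower calls from 0 to 105: 11 higher without MSC-TPr 1, 105 lower without Ctl MSC 1, 0 in both directions without Ctl MSC 2, Ctl MSC 3 or MSC-TPr 3, and 1 lower without MSC-TPr 2. The 5 splicing lists, with 0 calls over 6 libraries, had 1 higher and 1 lower in DESeq2, 30 and 2 over the libraries numbered 2 and 3, 31 and 2 there in DESeq2, and 6 and 2 with the covariate. The cause was not tested.

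Several log2 fold changes that were not called changed sign. Over the libraries numbered 2 and 3, Hnrnpa1 was 0.35 (0.36 in DESeq2), Hnrnph3 0.083 (0.087) and Hnrnpr 0.0039 (0.0081). With the covariate, Srsf1 was −0.061, Srsf2 −0.43, Srsf7 −0.14, Srsf9 −0.012, Srsf10 −0.033, Srsf11 −0.058, Hnrnpa3 −0.059, Hnrnpc −0.10, Hnrnpd −0.025, Hnrnph1 −0.22 and Hnrnpk −0.040. At least 10 counts gave Hnrnpc −0.0011 and Srsf11 −0.0034. With 1 library left out, the ranges were −0.60 to 0.10 for Hnrnpa1, −0.13 to 0.16 for Hnrnpc, −0.033 to 0.83 for Hnrnpd, −0.14 to 0.65 for Hnrnph1, −0.42 to 0.0084 for Hnrnph3, −0.050 to 0.28 for Hnrnpk, −0.11 to 0.025 for Hnrnpr, −0.037 to 0.26 for Srsf10, −0.15 to 0.11 for Srsf11, −0.27 to 0.58 for Srsf2 and −0.043 to 0.75 for Srsf7.

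Same-numbered libraries had correlations of −0.765, −0.594 and −0.604 in their deviations from the mean of their group. The outlying libraries numbered 1 push the deviations of the others in their group the opposite way. These correlations therefore cannot show whether the replicate numbers pair the libraries. With the replicate block, edgeR called 0 genes higher and 0 lower (776 had an unadjusted p under 0.05; DESeq2 without the block called 244 and 439), and Srsf11 was −0.0052. No library of one group correlated best with its own number. The SE of Srsf1's log2 fold change was 0.534 over 6 libraries and 0.175 without the libraries numbered 1.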
